A study of Mus musculus with 4 samples.

Results

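The 3571 sites described here are stretches of open chromatin in mouse intestinal organoids that were called in both compared libraries but passed a strict threshold only after 72 h of BMP2. Accessibility was measured with ATAC-seq, in which the Tn5 transposase cuts open chromatin and releases the fragments that are sequenced. The sites are the peaks of the 72 h library at a p-value threshold of 1e-10 (strict), on chromosomes 1 to 19 and X, that at least 1 bp of a 0 h peak at 1e-05 (lenient) overlapped and no strict 0 h peak overlapped. They were thus chosen by the p-value of each peak in the 2 libraries. They are called 72 h-strict sites below, and they made up 14.3% (95% interval 13.9 to 14.8) of the 24932 strict 72 h peaks. Of the other strict 72 h peaks, 16848 were also strict at 0 h and 4513 had no 0 h peak even at the lenient threshold (72 h-only peaks). The mirror rule gave 2142 0 h-strict sites, 10.8% (10.4 to 11.2) of the 19820 strict 0 h peaks. These counts follow from the rule and the sizes of the lists, and they are a difference in calling, not a measured fold, because the deposited lists hold no peak height.

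The 72 h organoids were grown in ER medium (epidermal growth factor and R-spondin) with 100 ng/mL recombinant BMP2 for 72 h, after CHIR99021, valproic acid and Noggin had been withdrawn. The 0 h organoids stayed in CVENR medium, which holds all 5 factors and no added BMP2. Both cultures were started from crypts of C57BL/6J mice, taken from the jejunum and proximal small intestine, and 30000 cells went into each library. The series has 4 libraries, of which the 24 h and 48 h ones were not analysed here. Each time point is a single library, so differences have no replicate check and no test was made, and BMP2 and the change of medium cannot be told apart. Epithelial genes were open in both libraries: Epcam, Cdh1, Vil1, Cdx2 and Krt8 each had a peak strict in both within 1 kb of a gene end, and the leukocyte gene Ptprc had no peak in either library. Of 3 other non-epithelial genes, the endothelial Pecam1 had lenient peaks (3 at 72 h and 1 at 0 h) and none strict in both. The fibroblast genes Col1a1 and Pdgfra had 1 peak strict in both each, that of Col1a1 at a gene end. Other members of the marker lists used below had peaks too. In the immune list 4 of 8 genes had a peak, with 2 peaks strict in both. The endothelial list had 8 of 9 genes and 3 such peaks, and the fibroblast and smooth muscle list 7 of 10 and 3.

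Bone morphogenetic proteins bind receptor serine/threonine kinases, which phosphorylate SMAD1, SMAD5 and SMAD9; these join SMAD4 in the nucleus and switch on targets such as the Id genes and the inhibitory SMADs. In the intestine the pathway is held low in the crypt, where Wnt signals keep stem cells, and is active along the villus, where enterocytes digest and absorb. CHIR99021 activates Wnt signalling by inhibiting GSK3, valproic acid inhibits histone deacetylases, and Noggin blocks BMPs.

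Promoters of 380 genes carried a 72 h-strict site and no strict 0 h peak, and 12 of them belonged to the functional gene lists used below. The 4 whose genes had the most 72 h-strict sites, ties in alphabetical order, are shown because CpG content is compared further on. The 12 windows held 1 to 29 CpGs with a median of 7, and 4 of them, at Ace, Nt5e, Slc7a8 and Tert, held 15 or more. Each is the RefSeq GRCm38.p6 sequence from 250 bases before to 50 bases after a start of the gene, 5′ to 3′ on the gene's strand, with CpG dinucleotides in capitals. The starts used for Eps8l3, Ccl25 and Pparg lie inside the gene. Eps8l3 (an EPS8-related protein; chr3:107876980-107877279, plus strand, at a start inside the gene) had 5 CpGs, Tm4sf5 (a tetraspan membrane protein; chr11:70505024-70505323, plus) 7, Ccl25 (the chemokine that draws T cells to the small intestine; chr8:4349338-4349637, plus) 1 and Pparg (a lipid-sensing nuclear receptor; chr6:115362099-115362398, plus, 1 of its several starts) 13.
Eps8l3: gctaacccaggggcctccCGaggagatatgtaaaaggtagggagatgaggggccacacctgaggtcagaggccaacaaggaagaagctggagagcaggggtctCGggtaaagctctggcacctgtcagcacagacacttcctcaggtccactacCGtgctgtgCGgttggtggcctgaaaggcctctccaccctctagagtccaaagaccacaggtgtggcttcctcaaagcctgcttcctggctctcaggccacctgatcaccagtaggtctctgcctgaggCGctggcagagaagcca
Tm4sf5: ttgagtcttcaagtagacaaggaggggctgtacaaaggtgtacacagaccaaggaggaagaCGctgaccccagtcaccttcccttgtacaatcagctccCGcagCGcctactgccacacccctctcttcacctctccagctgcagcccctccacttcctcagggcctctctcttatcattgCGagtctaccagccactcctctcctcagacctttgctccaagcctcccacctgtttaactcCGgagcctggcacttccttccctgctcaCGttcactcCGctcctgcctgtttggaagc
Ccl25: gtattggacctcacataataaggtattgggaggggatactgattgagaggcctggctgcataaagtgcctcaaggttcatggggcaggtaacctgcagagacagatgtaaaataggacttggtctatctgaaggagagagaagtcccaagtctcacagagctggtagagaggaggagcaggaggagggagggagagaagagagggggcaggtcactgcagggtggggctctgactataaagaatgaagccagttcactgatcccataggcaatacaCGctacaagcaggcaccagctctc
Pparg: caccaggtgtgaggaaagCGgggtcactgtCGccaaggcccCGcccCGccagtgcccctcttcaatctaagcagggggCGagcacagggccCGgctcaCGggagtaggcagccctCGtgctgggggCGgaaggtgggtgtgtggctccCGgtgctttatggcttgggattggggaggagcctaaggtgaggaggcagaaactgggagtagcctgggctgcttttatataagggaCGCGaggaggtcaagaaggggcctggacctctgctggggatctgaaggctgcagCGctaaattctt

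For contrast, 2 promoters with a 0 h-strict site and no strict 72 h peak are given, from the 6 such promoters in the lists (6 to 37 CpGs, median 10), chosen after the values were seen. The starts used for these 2 lie inside the gene. Lef1 (a Wnt effector; chr3:131112541-131112840, plus, at a start inside the gene) had 8 CpGs and Tgif1 (a homeobox repressor; chr17:70851161-70851460, minus) 23.
Lef1: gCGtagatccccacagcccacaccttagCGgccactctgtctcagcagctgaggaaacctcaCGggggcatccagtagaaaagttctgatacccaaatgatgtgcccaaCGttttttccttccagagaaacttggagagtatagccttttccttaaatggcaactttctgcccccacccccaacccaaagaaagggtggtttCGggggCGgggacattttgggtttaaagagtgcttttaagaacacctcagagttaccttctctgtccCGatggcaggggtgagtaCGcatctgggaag
Tgif1: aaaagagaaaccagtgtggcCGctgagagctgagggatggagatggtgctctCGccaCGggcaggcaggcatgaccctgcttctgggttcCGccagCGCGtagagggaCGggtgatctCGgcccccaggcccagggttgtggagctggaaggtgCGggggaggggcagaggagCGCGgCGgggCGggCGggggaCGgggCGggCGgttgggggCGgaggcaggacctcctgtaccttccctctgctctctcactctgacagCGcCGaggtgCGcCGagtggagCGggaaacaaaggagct

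A 72 h-strict site also lay at the microRNA genes Mir194-2 and Mir192, which are transcribed together and are abundant in the intestinal epithelium. Their mature sequences are shown with the seed (bases 2 to 8) in capitals, since the 4 strands have 4 different seeds.
miR-194-5p: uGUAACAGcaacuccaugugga
miR-194-2-3p: cCAGUGGGgcugcuguuaucug
miR-192-5p: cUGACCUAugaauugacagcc
miR-192-3p: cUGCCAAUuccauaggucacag

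This site spanned chr19:6264165-6264765 (mm10), so that its midpoint was at -178 bp from the 5′ end of the Mir194-2 hairpin and at -379 bp from that of Mir192. The lenient 0 h peak under it was centred 36 bp away. A neighbouring peak, centred over 1 kb upstream, was strict at both times. Hairpins of 5 microRNA genes lay on or within 300 bp of a 72 h-strict site, the others being Mir5620, Mir6917 and Gm51271. Only those of Mir194-2 and Gm51271 overlapped a site. Near 0 h-strict sites there were 9, among them Mir132 and Mir212, which share 1 such site on chromosome 11 (75173323 to 75173923). The microRNA genes were looked at after the values were seen. No share over all microRNA genes stands beside these counts, so they do not compare the classes.

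The 72 h-strict sites were mostly the same positions as their lenient 0 h partners. The median distance between the midpoints of a site and its partner was 30 bp (95% interval 28 to 31, quartiles 12 and 60), against 32 bp (30 to 34) for 0 h-strict sites and 25 bp (24 to 25) for 72 h peaks strict in both. Of the sites, 69.8% (68.3 to 71.3) lay within 50 bp of the partner and 3.05% (2.51 to 3.67) over 300 bp away. More than 1 lenient 0 h peak overlapped 8.60% (7.70 to 9.56) of the 72 h-strict sites, against 24.4% of the 72 h peaks strict in both. Merging overlapping sites left 3471. At the edge of the rule, 75 sites had a strict 0 h peak less than 100 bp away without overlap, while 165 strict 72 h peaks were not counted although the strict 0 h peak overlapped them by 100 bp or less. On the other side, 34 sites were joined to their lenient 0 h partner by 100 bp or less. The median 72 h-strict site was 15.2 kb from the nearest strict 0 h peak.

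The sites lay away from gene ends far more often than peaks strict in both libraries. A gene end here is the first or the last base of a protein-coding gene, whichever is nearer, and 14.3% (13.2 to 15.5, 512 sites) of the 72 h-strict sites lay within 1 kb of one. The share was 30.9% (28.9 to 32.9, 661 sites) for 0 h-strict sites and 57.7% (56.9 to 58.4) for 72 h peaks strict in both. Another 44.2% (42.6 to 45.9) of the 72 h-strict sites lay inside a gene, against 34.9% (32.9 to 36.9) of the 0 h-strict sites. A further 1090 72 h-strict and 578 0 h-strict sites lay outside genes but within 50 kb. The remaining 10.9% (9.92 to 12.0) of 72 h-strict and 7.28% (6.22 to 8.47) of 0 h-strict sites had no protein-coding gene within 50 kb. The 72 h-only peaks lay further in the same direction, with 5.87% at gene ends, 48.4% inside genes and 13.3% over 50 kb away. This placement was thus not particular to the 72 h-strict sites. The ratio of the classes differed with place: there were 0.775 72 h-strict sites for each 0 h-strict site at gene ends (0.689 to 0.871) and 2.07 elsewhere (3059 and 1481 sites). As a share of the shared lenient peaks the gene ends were level, with 78.5% strict at 72 h and 78.4% at 0 h, whereas elsewhere the shares were 65.7% and 55.0%. The ratio was 2.11 (1.94 to 2.31) inside genes, 1.89 (1.70 to 2.09) in flanks and 2.50 (2.07 to 3.03) in the gene-poor intervals. Intervals on these shares and ratios cover counting error only.

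**Figure D1:**
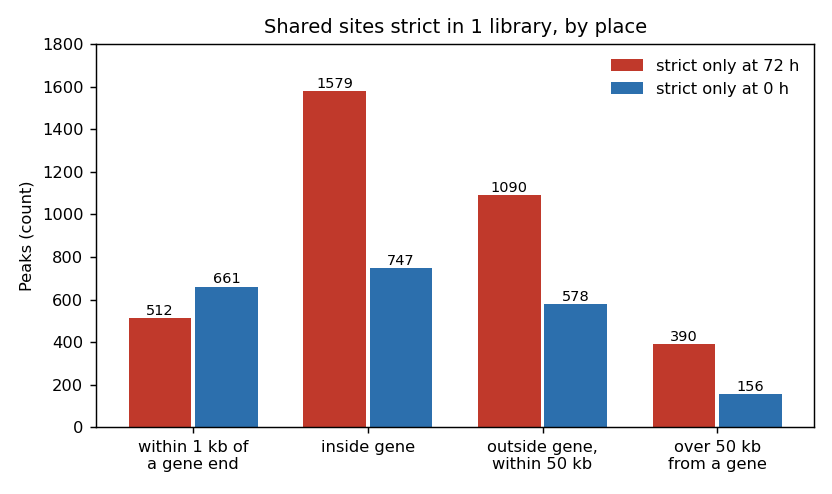
Number of peaks (vertical axis, count) by place for shared sites strict only at 72 h (red, left) and only at 0 h (blue, right). The blue bar is the higher one within 1 kb of a gene end (661 against 512 peaks), and the red bar is higher at the other 3 places.

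Known transcription starts, taken from the RefSeq windows on 19 chromosomes (chromosome 18 was not used for this), gave the same order. Of 3458 72 h-strict sites, 15.6% (14.4 to 16.8) lay within 1 kb of a start, against 31.0% (29.0 to 33.1) of 2082 0 h-strict sites and 56.8% (56.0 to 57.5) of 72 h peaks strict in both. For 72 h-only peaks the share was 6.21% (5.51 to 6.97). The median distance to a start was 13.6 kb for 72 h-strict sites and 8.15 kb for 0 h-strict sites. Even among sites at gene ends, 64.7% (60.3 to 68.9) of the 72 h-strict ones were at a start, against 70.2% (66.5 to 73.7) of the 0 h-strict ones and 82.2% (81.4 to 83.0) of the peaks strict in both.

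The excess of 72 h-strict over 0 h-strict sites was present on each of the 19 autosomes, with ratios between 1.29 and 2.25, but the intervals of chromosomes 15 (0.995 to 1.68) and 19 (0.984 to 1.76) hold 1. On the X chromosome it was not: 41 72 h-strict and 55 0 h-strict sites gave a ratio of 0.745 (0.485 to 1.14), against 1.69 (1.60 to 1.79) on the autosomes together. The X held 11 and 31 such sites at gene ends and 30 and 24 elsewhere. All strict peaks showed a smaller shift of the same kind, with 1.04 72 h peaks for each 0 h peak on the X and 1.19 to 1.35 on the autosomes.

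Promoters that carried a 72 h-strict site held fewer CpG dinucleotides than those with a 0 h-strict site or strict in both. They were near the level of all genes, and the 4 printed above ranged from 1 at Ccl25 to 13 at Pparg. CpG-rich promoters are typical of broadly expressed genes, and CpG-poor ones are common at genes of differentiated cells. Over the 380 genes the median window held 9 CpGs (95% interval 8 to 11, quartiles 5 and 18). It held 20 (19 to 22) at the 548 genes whose window carried a 0 h-strict site and no strict 72 h peak, 23 (23 to 24) at 8836 genes strict in both, and 7 over all 26794 genes with a window. These groups include genes that are not protein-coding, in unlike parts. Protein-coding were 291 of the 380, 447 of the 548, 7843 of the 8836 and 17273 of the 26794 genes. The part of this in the CpG, GC and motif comparisons was not tested. At least 15 CpGs were present in 33.7% (28.9 to 38.7) of the 72 h-strict promoters, 66.8% (62.7 to 70.7) of the 0 h-strict ones and 35.0% of all genes. With 5 or fewer CpGs there were 30.8% (26.2 to 35.7) of the 72 h-strict promoters and 43.8% of all genes. Median GC content was 54.3% at 72 h-strict, 62.5% at 0 h-strict and 52.7% at all promoters. Promoters of 72 h-only peaks lay further in the same direction, with a median of 4 CpGs (4 to 5) over 164 genes, whereas those of strict 0 h peaks with no 72 h peak had 17 (15 to 20) over 218 genes.

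**Figure D2:**
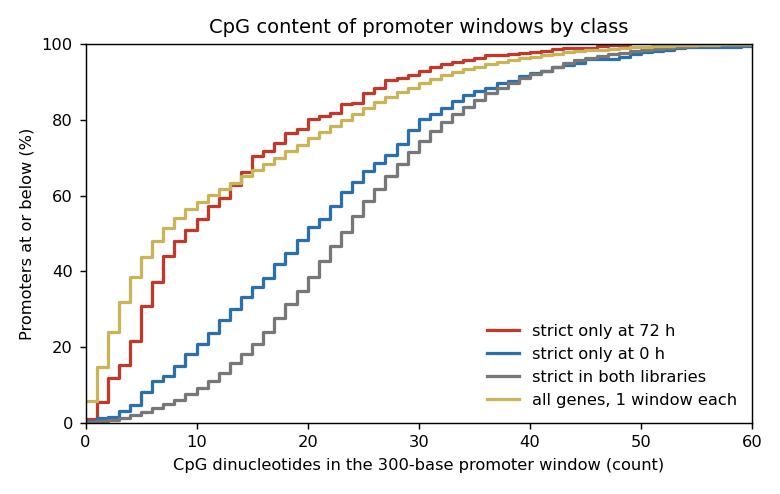
Cumulative share of promoters (vertical axis, %) by the number of CpG dinucleotides in their 300-base window (horizontal axis, count), for promoters strict only at 72 h (red), only at 0 h (blue), in both libraries (grey) and for 1 window of every gene (yellow). The red curve crosses 50% at 9 CpGs and runs near the yellow one, and the blue and grey curves cross at 20 and 23.

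Short motifs were counted in the same windows as exact letters on either strand. CAAAGTC, a stretch of the HNF4 motif, was in 5.26% (3.24 to 8.01) of 72 h-strict promoters, 2.19% (1.14 to 3.79) of 0 h-strict promoters and 4.37% of all genes. The GATA letters AGATAA were in 9.47% (6.72 to 12.9), 5.66% (3.88 to 7.93) and 11.4%, and the CDX letters TTTATG in 10.0% (7.17 to 13.5), 5.29% (3.57 to 7.51) and 12.2%, in the same order of groups. FOXA letters TGTTTAC were in 5.26% (3.24 to 8.01), 1.64% (0.754 to 3.09) and 3.61%. The GC-rich SMAD letters GGCGCC went the other way, with 13.7% (10.4 to 17.6) of 72 h-strict promoters, 137 of the 548 0 h-strict ones (21.4 to 28.8%) and 11.9% of all. The intervals of the FOXA and SMAD letters did not overlap between 72 h-strict and 0 h-strict promoters, and those of the HNF4, GATA and CDX letters did. AP-1 (TGANTCA), TCF (CTTTGAT, which shares CAAAG with the HNF4 letters), KLF (GGGTGTG), ETS (CCGGAAG), TEAD (GGAATG) and the CTCF core (AGGGGGC) likewise had overlapping intervals. CpG content moved with these shares: among promoters with fewer than 15 CpGs the HNF4 letters were in 5.95% (3.37 to 9.63) of 252 72 h-strict and 3.30% (1.22 to 7.04) of 182 0 h-strict ones, and GGCGCC in 11 and 16 of them, with overlapping intervals for all 11 motifs. A match is a description of letters, and the part of base composition in it was not tested.

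The 72 h-strict sites lay closer to 72 h-only peaks than other shared sites did. Within 50 kb of a 72 h-only peak were 39.9% (38.3 to 41.5) of the 72 h-strict sites, 26.8% (24.9 to 28.7) of the 0 h-strict sites and 31.8% (31.1 to 32.5) of the 72 h peaks strict in both. The median distance was 79.0 kb, 121.2 kb and 104.8 kb in that order. The order was the same at gene ends (39.3%, 26.0% and 29.7% within 50 kb) and away from them (40.0%, 27.1% and 34.8%). Strict 0 h peaks with no 72 h peak gave the opposite order for these classes, with 11.1% (10.1 to 12.2) of the 72 h-strict and 14.7% (13.2 to 16.2) of the 0 h-strict sites within 50 kb, and 11.5% of peaks strict in both. Within 10 kb, another 72 h-strict site was found beside 16.6% (15.4 to 17.8) of the 72 h-strict sites and a 0 h-strict site beside 5.46% (4.74 to 6.26). Of the 0 h-strict sites, 9.29% (8.09 to 10.6) had a 72 h-strict site and 11.1% (9.81 to 12.5) another 0 h-strict one within 10 kb, and within 50 kb 30.3% and 26.9%. The classes differ in size, and the part of this in the shares was not tested.

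**Figure D3:**
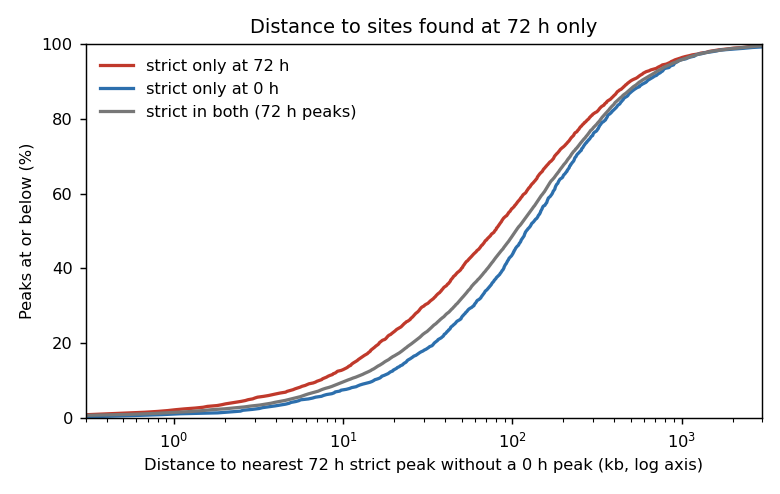
Cumulative share of peaks (vertical axis, %) by distance to the nearest strict 72 h peak without a 0 h peak (horizontal axis, kb, log scale), for sites strict only at 72 h (red), only at 0 h (blue) and for 72 h peaks strict in both libraries (grey). The red curve lies left of the others, with medians of 79.0, 121.2 and 104.8 kb.

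Each site was assigned to the protein-coding gene that holds its midpoint or lies nearest within 50 kb, which placed 3181 72 h-strict and 1986 0 h-strict sites. Of the 15195 genes with any peak, 2567 (16.9%) had a 72 h-strict site, 1750 (11.5%) a 0 h-strict site and 425 both. Genes with a 72 h-strict site had a 72 h-only peak in 32.3% of cases (30.4 to 34.1), genes with a 0 h-strict site in 23.0% (21.1 to 25.1) and all genes with a peak in 18.7%. Both shares grew with the number of 0 h peaks at the gene, and within genes with 1, 2 to 3, 4 to 6 and 7 or more 0 h peaks they were 15.2, 26.0, 37.3 and 56.6% for 72 h-strict and 8.88, 16.0, 27.8 and 50.2% for 0 h-strict genes.

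Several 72 h-strict sites at 1 gene were more frequent than several 0 h-strict sites. Of the 15195 genes with a peak, 76 (0.500%) had 3 or more merged 72 h-strict sites and 13 (0.0856%) had 3 or more 0 h-strict ones. The 72 h-strict class is larger, with 3471 merged sites against 2095, and the part of this in the counts was not tested. Maml3 (a Notch coactivator) and Pde4d (a cAMP phosphodiesterase) had 6 merged 72 h-strict sites each and Rere (a transcriptional corepressor) 5, beside 1, 2 and 1 0 h-strict sites. These genes are long, with 418, 1302 and 340.5 kb. Armc9, Atp8b1 (a phospholipid flippase), Azin1 (a regulator of polyamine synthesis), Cers6 (a ceramide synthase) and Egfr came next, the first by name of the 17 genes with 4. Egfr, the receptor of the epidermal growth factor present in both media and a gene of the villus tip, had 5 peaks forming 4 sites, no 0 h-strict site and no 72 h-only peak. All 5 lay inside the gene, at 52.2, 78.6, 148.6, 149.0 and 155.6 kb from its start, and the first spanned chr11:16804073-16804673. At Sfi1, a 71.5 kb gene on chromosome 11, 4 merged 72 h-strict and 4 0 h-strict sites were interleaved in and beside the gene, among 30 lenient peaks at 72 h and 34 at 0 h. Its sites are uncertain, because copies of this gene are repeated in the mouse genome. 1110051M20Rik, Bcor and Ccnd1 were among the genes with 3 0 h-strict sites, and none of these had a 72 h-strict site. Ccnd1 encodes cyclin D1, which drives entry into the cell cycle.

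Genes of the enterocyte carried 72 h-strict sites far more often than 0 h-strict ones. Pooled from 5 lists (villus-bottom, mid-villus, villus-tip, brush border and digestion, lipid handling), 90 genes had a peak. Of these, 36 (40.0%, 29.8 to 50.9) had a 72 h-strict site, against 16.9% of all genes with a peak, and 10 (11.1%, 5.46 to 19.5) a 0 h-strict one, against 11.5% of all genes. The share of genes with a 72 h-strict site depended on how many peaks a gene had: over all genes it was 5.77, 19.4, 40.4 and 66.1% for 1, 2 to 3, 4 to 6 and 7 or more 0 h peaks, and the share with a 0 h-strict site was 5.59, 11.8, 26.3 and 46.3%. The 16.9% and the 11.5% are therefore no matched backgrounds, for these lists or for those below. The goblet, junction and transcription factor lists below had higher shares of genes with a 72 h-strict site than the enterocyte lists. The pooled lists held 57 72 h-strict and 12 0 h-strict peaks, so 82.6% (71.6 to 90.7) of the peaks strict in 1 library were 72 h-strict, against 61.6% over all genes. The share was as high at each place: at gene ends the pooled lists had 13 and 3 such peaks (81.3%, 54.4 to 96.0), where all genes had 43.6% (40.8 to 46.5), and elsewhere 44 and 9 (83.0%, 70.2 to 91.9), where all genes had 66.8% (65.3 to 68.3). Sites at 1 gene share their surroundings, so these intervals are too narrow.

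**Figure D4:**
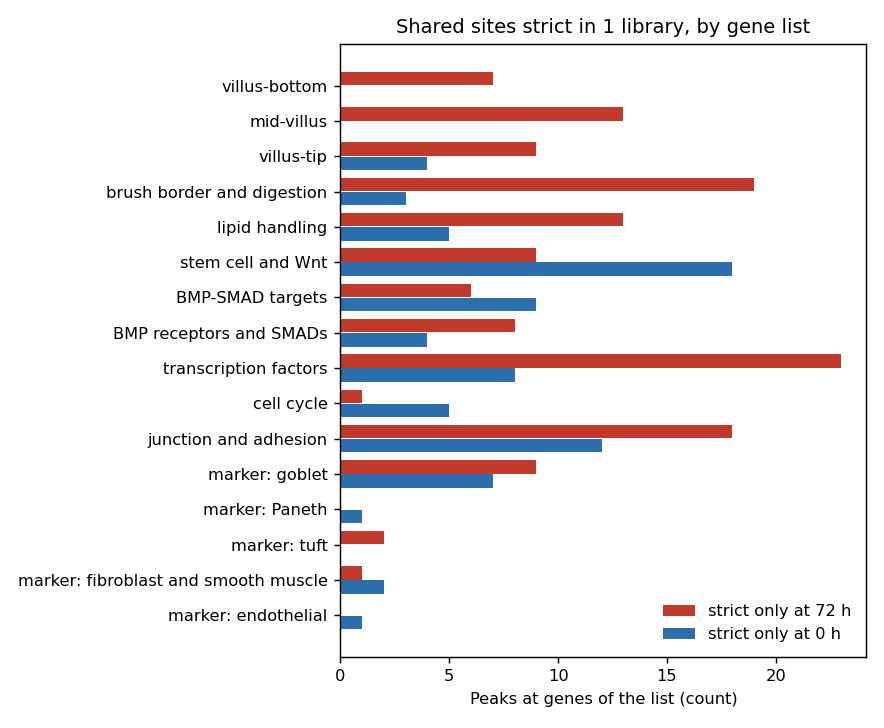
Number of peaks (horizontal axis, count) strict only at 72 h (red, upper bar) and only at 0 h (blue, lower bar) at the genes of each list (vertical axis); lists share some genes. The mid-villus list has 13 red and 0 blue peaks, and the stem cell and Wnt list has 9 red and 18 blue.

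The mid-villus list, of absorptive transporters and enzymes, had 72 h-strict sites at 8 of 17 genes and a 0 h-strict site at none. The first is 47.1% (23.0 to 72.2), against 16.9% of all genes. The interval of the second (0 to 19.5%) holds the 11.5% of all genes. Fabp2 (a fatty acid binding protein), Sis (sucrase-isomaltase), Slc15a1 (the apical peptide transporter), Slc3a1 (a subunit of the cystine transporter) and Slc7a8 (a basolateral amino acid exchanger) had 2 each. The Sis sites lay 29.8 and 35.6 kb before the gene start on chromosome 3 and 675.3 and 669.4 kb from the nearest strict 0 h peak. Both Slc3a1 sites lay at the gene start, 0.891 and 0.114 kb before it (chr17:85027156-85027756 and chr17:85027933-85028533), and so did both Slc7a8 sites, 0.630 kb after and 0.043 kb before it. Slc5a1, the sodium-glucose cotransporter, had 1, 27.5 kb before its start. Of the villus-bottom genes with a peak, 4 of 11 had a 72 h-strict site and none a 0 h-strict one. Tm4sf5 had 3, at 4.73 and 0.080 kb before and 4.42 kb after its start. The partner peak of the last was centred 539 bp away, so that the 2 overlapped little. Ccl25 had 2, and Pigr (the polymeric immunoglobulin receptor) and Reg3b (an antimicrobial lectin) 1 each. The intervals of these villus-bottom shares (10.9 to 69.2% and 0 to 28.5%) hold those of all genes. The nearest strict 0 h peak to the Reg3b site was 1456 kb away.

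Brush border and digestion genes had 72 h-strict sites at 12 of 24 members and 0 h-strict ones at 3, where all genes with a peak had 16.9% and 11.5% (the 3 were Eps8, Plb1 and Vil1). Eps8l3 had 3, of which 1 lay over the promoter printed above (midpoint at -0.081 kb from the start), 1 at 0.816 kb and 1 at -13.0 kb, the last 0.720 kb from a 72 h-only peak. Dpp4 (a peptidase), Mep1b (a meprin subunit), Mgam (maltase-glucoamylase) and Sis had 2 each and no 0 h-strict site, while Eps8 (an actin capper of microvilli) had 2 and 1. Sites covered the starts of Ace and Enpep, both of which encode angiotensin-cleaving peptidases, with midpoints 0.057 and 0.001 kb before them. Another covered a start inside the Mep1a gene, at -0.034 kb from it. Lipid handling genes had 72 h-strict sites at 9 of 27 members (33.3%, 16.5 to 54.0) and 0 h-strict ones at 4 (14.8%, 4.19 to 33.7). Dgat2 (triglyceride synthesis) had 2 and 1, Pparg and Ppargc1a (its coactivator) had 2 and 0, and Ppara (the receptor of fatty acid oxidation) had 0 and 2. The 2 at Ppara lay 49.8 and 32.2 kb outside the gene, which also had 4 72 h-only peaks. In the villus-tip list, 5 of the 19 genes with a peak had a 72 h-strict site (Egfr, Nt5e, Klf4, Cdkn1a and Cdh1) and 3 a 0 h-strict one (Cdh1, Atf3 and Gna11), and the intervals of both shares (9.15 to 51.2% and 3.38 to 39.6%) hold those of all genes. The Nt5e site covered the start of this ecto-nucleotidase gene, 0.030 kb after it.

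Stem cell and Wnt genes held more 0 h-strict than 72 h-strict sites. Of 29 with a peak, 8 (27.6%, 12.7 to 47.2) had a 72 h-strict site, against 16.9% of all genes, and 12 (41.4%, 23.5 to 61.1) a 0 h-strict one, against 11.5%. Neither background is matched for the number of peaks at a gene, on which both shares depended. The stem cell and Wnt genes held 9 72 h-strict and 18 0 h-strict peaks, so 33.3% (16.5 to 54.0) were 72 h-strict, against 61.6% over all genes. At gene ends there were 1 and 11 peaks (8.33%, 0.211 to 38.5, against 43.6% over all genes), and elsewhere 8 and 7 (53.3%, 26.6 to 78.7, against 66.8%). The 1 at a gene end was at Tert, the telomerase subunit, and the 11 were at Ascl2, Bmi1, Igfbp4, Msi1, Myc, Prom1, Smoc2, Sox9 and Sp5. Ephb2, a receptor that positions crypt cells, had 2 72 h-strict sites, both inside the gene, and Olfm4, a stem cell marker, 1, 16.9 kb outside it. Prom1 and Sp5 also had 1 72 h-strict site each, inside the gene. Axin2, a Wnt feedback gene, had 1 of each class, 3.53 kb apart, and Lef1 and Myc had 2 0 h-strict sites each and no 72 h-strict one. Of 20 cell cycle genes with a peak, 1 (Mcm3, 5.00%, 0.127 to 24.9) had a 72 h-strict site. A 0 h-strict site was at 3 (15.0%, 3.21 to 37.9), Ccnd1, Ccne1 and Mki67, with 5 peaks, 3 of them at Ccnd1. Both intervals hold the shares of all genes. The 72 h-strict share of these peaks, 16.7% (0.421 to 64.1), has an interval that holds the 61.6% of all genes.

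**Figure D5:**
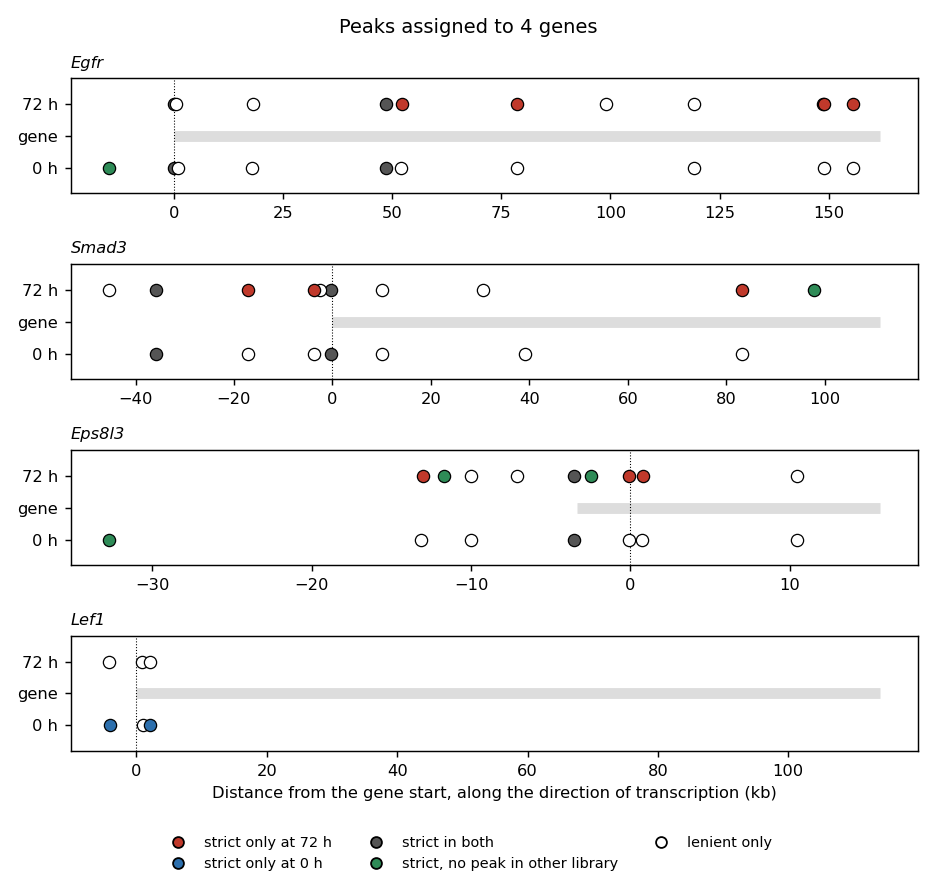
Peaks assigned to Egfr, Smad3, Eps8l3 and Lef1 by distance from a RefSeq start of the gene (horizontal axis, kb, along transcription). For Eps8l3 this start lies inside the gene. The 72 h peaks are above and the 0 h peaks below the gene (grey bar). Colours mark peaks strict only at 72 h (red), only at 0 h (blue), in both libraries (dark grey), without a peak in the other library (green) or lenient (open); each red peak of Egfr, Smad3 and Eps8l3 stands over an open 0 h one, and each blue peak of Lef1 under an open 72 h one.

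Genes of the BMP pathway were mixed. Among BMP-SMAD targets, 5 of 16 with a peak (31.3%) had a 72 h-strict site, against 16.9% of all genes, and 6 (37.5%) a 0 h-strict one, against 11.5%. They held 6 and 9 peaks, and the interval of the 72 h-strict share (16.3 to 67.7%) holds the 61.6% of all genes. Smad6, an inhibitory SMAD, had 2 72 h-strict sites, 3.38 kb after and 27.6 kb before its start, and no 0 h-strict one. Id1 (a helix-loop-helix inhibitor and direct target) had 1, 4.44 kb outside the gene, and Smad7 (the other inhibitory SMAD) 1 inside the gene. Pmepa1 had 1 of each class, Tgif1 had 1 72 h-strict and 2 merged 0 h-strict sites, and Atoh8 had 2 0 h-strict sites. Id2 had 1 0 h-strict site, and Id3 had neither. Among receptors, ligands and SMADs, 5 of 15 had a 72 h-strict site and 4 a 0 h-strict one. The intervals of these shares (11.8 to 61.6% and 7.79 to 55.1%) hold the 16.9% and 11.5% of all genes. Smad3, a mediator of TGF-beta and activin signals, had 3 and 0, at 3.66 and 17.1 kb before and 83.1 kb after its start, and Acvr1 (a BMP type I receptor) had 2 and 0.

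Transcription factor genes had 23 72 h-strict peaks at 15 of 32 members (46.9%, 29.1 to 65.3) and 8 0 h-strict peaks at 5 (15.6%, 5.28 to 32.8). Among all genes with a peak the shares were 16.9% and 11.5%. The share of 72 h-strict peaks was 74.2% (55.4 to 88.1), an interval that holds the 61.6% of all genes. Gata4, which keeps proximal intestinal identity, had 4 72 h-strict sites away from its ends and 1 0 h-strict site at a gene end. Tcf7l2, the main Wnt effector of the epithelium, had 3 and 0, and Klf6, Pparg and Vdr (the vitamin D receptor) 2 and 0. Hnf4g had 1, at a gene end, and its partner peak was centred 364 bp away. The Nr1i2 site lay on the start of this xenobiotic receptor gene, at -0.009 kb. Junction and adhesion genes had 18 72 h-strict peaks at 13 of 25 members and 12 0 h-strict peaks at 9, a share of 72 h-strict peaks with an interval of 40.6 to 77.3% that holds the 61.6% of all genes.

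The marker lists of other cell types than goblet cells were too short to set their shares apart from those of all genes. Goblet cell genes had 9 72 h-strict peaks at 7 of 13 members and 7 0 h-strict peaks at 5. These are 53.8% (25.1 to 80.8) and 38.5% (13.9 to 68.4) of the genes, against 16.9% and 11.5% of all genes, and the first is above the 40.0% of the enterocyte lists, with an interval that holds it. Among them were Spink4 and Bcas1 with 2 72 h-strict sites each. Among tuft cell genes 1 of 7 with a peak, Sh2d6, had 2 72 h-strict sites. Paneth cell genes (4 with a peak) and endothelial genes (8) had no 72 h-strict site and 1 0 h-strict site each. Enteroendocrine (14) and immune genes (4) had neither class. Fibroblast and smooth muscle genes (7) had 1 72 h-strict site at Acta2 and 2 0 h-strict ones at Col1a1. The share of genes with a 72 h-strict site had an interval of 0.361 to 57.9% for the tuft and the fibroblast and smooth muscle lists. It was 0 to 60.2% for the Paneth and immune lists, 0 to 36.9% for the endothelial and 0 to 23.2% for the enteroendocrine list. Each of these holds the 16.9% of all genes, and the 0 h-strict intervals of these lists hold the 11.5%. The part of a changed mixture of cells in the sites was not tested, and in these bulk libraries more cells with an open site and wider opening per cell cannot be told apart.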

How the data were processed

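ATAC-seq peak lists of 2 of the 4 libraries were used, 1 at 72 h of BMP2 and 1 at 0 h. The submitters' processing notes name the mm10 build and, for the authors' work, the tools MACS2 2.2.7.1, Bowtie2 2.4.1, cutadapt 1.9.1, SAMtools 1.3.1, deepTools 3.5.4, bedtools 2.26.0 and Picard 2.18.27, with no role or order. In the sources used here it is not given whether cut sites were shifted or duplicates removed, either of which could move a peak across a threshold. The deposited lists hold coordinates and peak names, which show that peaks were called per library, and neither score nor read count, so the depth is unknown. Peaks span 601 bp, with 9 exceptions over the deposited lists. On chromosomes 1 to 19 and X the lenient lists held 41036 peaks at 72 h and 35627 at 0 h, and the strict lists 24932 and 19820.

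Classes were computed with numpy 2.4.6 and pandas 2.3.3 under Python 3.11.15 and recovered from simulated lists; printed coordinates are 1-based. Genes are the 21627 protein-coding genes of RefSeq GRCm38.p6, the assembly of mm10, and 17273 of them had a promoter window. The windows used for starts, CpGs and motifs also include genes that are not protein-coding. Intervals are exact Clopper-Pearson 95% intervals (SciPy 1.17.1), and those of medians come from binomial ranks; both cover counting error only. The members and the 11 functional and 7 marker lists were chosen with earlier results of these data known, so they support nothing by themselves. Genes named are the 8 with the most merged 72 h-strict sites, the 5 with the most 0 h-strict ones, up to 4 with most 72 h-strict and 2 with most 0 h-strict sites per functional list and up to 2 per marker list, ties in alphabetical order; others were named after their values were seen. Some genes that this rule picks are not reported here. The 5 alternatives are reported below. Figures were drawn with matplotlib 3.10.9.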

Additional observations from a re-analysis of the deposited data

Results flagged for a closer look

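Chromosome Y and the unplaced contigs, which no comparison above uses, held 16 shared sites strict only at 72 h and 15 strict only at 0 h, of 108 and 90 strict peaks there. They are given because these sequences were left out of the analysis, and 8 and 5 of the sites lay on Y.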

How the results depend on the processing

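The 18 results were recomputed under up to 5 alternatives each. Of the 66 values, 57 stayed within the interval of the value reported, or within 1.5 times a count, none turned round, and 9 moved. With a gene-end window of 2 kb, 20.3% of 72 h-strict and 37.8% of 0 h-strict sites lay at gene ends, 40.3% and 30.2% lay inside genes, and the ratio of the classes at gene ends was 0.897. Without sites that had a strict peak of the other library within 1 kb, 12.7% of the 72 h-strict sites lay at gene ends. With genes assigned within 10 kb, 27.4% of genes with a 72 h-strict site and 19.4% of those with a 0 h-strict site had a 72 h-only peak, and 5 stem cell and Wnt genes had a 72 h-strict site. A stricter threshold could not be tried, since the lists hold no score. No paired analysis was possible because each time point is 1 library. Without heights or read counts, how far a site lay from the threshold in either library is not known.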
